A study of Mus musculus with 4 samples.

Results

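Main clear cells are the largest of 3 clear cell populations in a single-cell RNA sequencing atlas of the mouse epididymis and vas deferens. They were taken by their cell number from the deposited table of cells, where the population is named Clear. They made up 2.43% of all 8880 cells and 62.1% of the 348 clear cells. By library, 28 came from the caput, 69 from the corpus, 94 from the cauda and 25 from the vas deferens, which was 1.95%, 2.97%, 5.82% and 0.713% of the cells of each library. The caput, corpus and cauda are the head, body and tail of the epididymis, and the vas deferens is the duct that follows. The atlas has 1 library for each of these 4 regions, made from 8 organs of 4 male FVB/NJ mice aged 10 to 12 weeks and pooled by region, with no treatment, from a suspension depleted of sperm. The main clear cells were compared with the 3956 principal cells, the 1397 basal cells and a clear population of 78 cells, deposited under the name Narrow, that the study describes by its Amylin. Despite that name, the study holds it unlikely that its Amylin-positive cells are the narrow or apical cells of the initial segment. The third clear population, of 54 cells, was not described further.

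Clear cells pump protons into the lumen of the duct through the vacuolar ATPase (V-ATPase), a rotary enzyme with a peripheral V1 sector that hydrolyzes ATP and a membrane V0 sector that carries the protons. An acidic lumen keeps sperm quiescent during storage. Clear cells also take up material from the lumen by endocytosis, and they resemble the intercalated cells of the kidney, with which they share the forkhead transcription factor Foxi1. Principal cells are the absorptive and secretory majority of the epithelium, and basal cells lie along its base.

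Several V-ATPase subunits exist as a widely expressed isoform and an isoform found in few cell types, so the sequence upstream of such a gene is of interest beside its level. The promoters below are the 150 bases before the start of *Atp6v1b1* (B1 subunit), *Atp6v1g3* (G3 subunit) and *Iapp* (Amylin), which stand for an isoform near absent from the other epithelial cells, the subunit gene used as the clear cell marker, and the gene that set both clear populations apart. They were taken from RefSeq on GRCm38.p6, all on the plus strand, at chr6:83742867-83743016, chr1:138273588-138273737 and chr6:142298275-142298424. Capitals mark the forkhead motif GTAAACA or its reverse complement TGTTTAC.
Atp6v1b1: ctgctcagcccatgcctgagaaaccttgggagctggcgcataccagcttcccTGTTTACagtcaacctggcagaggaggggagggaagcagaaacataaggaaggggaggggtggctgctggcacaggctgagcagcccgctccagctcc
Atp6v1g3: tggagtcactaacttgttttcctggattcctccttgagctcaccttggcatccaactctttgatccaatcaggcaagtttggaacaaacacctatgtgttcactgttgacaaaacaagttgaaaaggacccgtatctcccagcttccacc
Iapp: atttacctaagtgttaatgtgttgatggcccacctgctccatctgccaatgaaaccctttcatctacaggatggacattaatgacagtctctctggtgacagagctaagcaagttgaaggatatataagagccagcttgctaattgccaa
The motif lay 98 to 92 bases before the start of *Atp6v1b1* and was not in the other two stretches. Over windows of 300 bases (250 before to 50 after the start), searched on both strands, it occurred in 1 of 24 windows of 19 V-ATPase subunit genes (4.17%), in 13 of 383 windows of 277 genes higher in main clear cells than in principal and basal cells (3.39%) and in 1199 of all 32851 windows (3.65%). The motif was thus about as frequent upstream of these genes as upstream of genes at large. A gene can have several windows, and not every gene of the lists has one. A match is a string of letters and not a shown binding site.

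Depth differed between the populations. Main clear cells had a median of 5327.5 UMIs (unique molecular identifiers, each counted as 1 mRNA molecule) against 4370 in basal cells, 4544.5 in the 78-cell clear cells and 934.5 in principal cells. Among main clear cells the median was 5059.5, 1796, 6541.5 and 6518 from caput to vas deferens, and 44 of the cells had fewer than 1000 UMIs. Together they held 1088546 UMIs. Levels are given as UPM, the UMIs of a gene per 1000000 UMIs of all cells of a population, with exact 95% Poisson intervals in parentheses. Runs of 4 values follow the order caput, corpus, cauda and vas deferens. One tag is read near the 3′ end of each molecule, so levels carry no correction for length. The intervals cover counting error only. With 1 library per region there were no replicates, so no test was run and no p-value is given, and a difference between regions and one between libraries cannot be told apart. The populations had been clustered on these same genes, so every contrast between populations below is a description.

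The marker genes matched the name of the population. The 3 genes given as its markers were *Atp6v1g3* (chromosome 1, 138273738 to 138289462), *Atp6v1a* (chromosome 16, 44085402 to 44139705), the catalytic A subunit, and *Dab2* (chromosome 15, 6299788 to 6440712), an adaptor for clathrin-mediated uptake. *Atp6v1g3* had 7671, 7702, 7326 and 3545 UPM from caput to vas deferens, and 6968 UPM (6812 to 7127) over all main clear cells. Principal cells had 38.7 UPM (34.8 to 42.8) and basal cells 26.6 (22.7 to 31.0), so the level in main clear cells was 180 times (162 to 200) and 262 times (224 to 307) as high. The lowest library of main clear cells thus lay far above both other types. Within libraries the ratio to principal cells was lowest in the corpus, at 43.9 (38.5 to 50.3), where principal cells had 176 UPM. *Atp6v1a* had 739, 862, 1257 and 685 UPM in the same order of libraries against 84.9 in principal and 57.6 in basal cells, and *Dab2* had 1056, 1109, 1945 and 885 UPM against 46.5 and 38.0. Both genes were highest in the cauda.

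Counted per cell, *Atp6v1g3* was found in most main clear cells. With every cell thinned to 1000 UMIs and the 44 shallower cells left out, 152 of 172 main clear cells had a UMI (88.4%, 82.6 to 92.8), against 10 of 1147 basal cells (0.872%, 0.419 to 1.6), which should lack the gene, and 24 of 1894 principal cells (1.27%, 0.814 to 1.88). Without thinning the shares were 79.2% of all main clear cells, 1.29% of basal cells and 1.97% of principal cells. *Foxi1* was found in 80 of 172 thinned main clear cells (46.5%, 38.9 to 54.3), in 3 of 1147 basal cells (0.262%, 0.0540 to 0.762) and in 0 of 1894 principal cells, where a count of 0 allows up to 0.158% of cells with a UMI (3 counts of the total). That limit is for cells thinned to 1000 UMIs and says nothing of cells that express the gene below it. Unthinned, its shares were 68.1%, 0.501% and 0.455%.

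Some cells in the population stood apart from the rest. Of the 172 main clear cells with at least 1000 UMIs, 15 had no *Atp6v1g3* UMI. They were 1 of 20 such cells of the caput, 6 of 48 of the corpus, 1 of 84 of the cauda and 7 of 20 of the vas deferens. Another 30 main clear cells without an *Atp6v1g3* UMI had fewer than 1000 UMIs and are not among the 15. Under 1000 UMIs the gene was found in 14 of 44 main clear cells and in 17 of 28 of the 78-cell clear cells. Values given below without the 15 cells still include the other 30. Pooled, these 15 cells were lower in genes of clear cells and higher in genes of principal cells than the other 157, and the 7 vas deferens cells held most of their UMIs (47858 of 58560). *Foxi1* had 68.3 UPM in the 15 cells and 727 in the other 157, and *Atp6v0d2*, a V0 subunit, had 34.2 and 592. *Atp6v1b1* and *Clcn5*, an endosomal chloride-proton exchanger, had no UMI in the 15 cells. *Crisp1*, a secreted protein that coats sperm, had 14396 UPM in the 15 cells and 716 in the others. *Akr1b7*, an aldo-keto reductase of vas deferens principal cells, had 10365 and 16.8.

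The plot of single cells shows how far these cells lay from the others. Since *Atp6v1g3* chose the 15 cells and is itself a V-ATPase subunit, the shares that bear on them are those of the other V-ATPase subunits. These held 0% to 1.0% of the UMIs of each of the 15 cells, with a median of 0.340%, against 0.361% to 2.07% with a median of 1.13% in the other 157, so the ranges overlapped. Principal cell markers ranged from 0% to 6.77% in the 15 cells and from 0% to 2.11% in the others. The caput cell had 0.982% in the other V-ATPase subunits and no principal marker UMI, and the 6 corpus cells had 0% to 1.0% and 0.111% to 2.86%, so the pooled values do not describe every one of the 15. In the 7 vas deferens cells the range was 0.146% to 0.418%, which falls among the values of principal cells of that library (median 0.371%), and 19 principal cell markers held 1.95% to 6.77% of their UMIs. In the 13 other vas deferens cells the range without *Atp6v1g3* was 0.814% to 1.92% and principal markers held at most 0.231%, so the 2 sets of vas deferens cells did not overlap in either measure. Depth moved with the lack of *Atp6v1g3* in the corpus, where the 6 cells had a median of 1215 UMIs against 5353.5 in the other 42, but not in the vas deferens, where the 7 cells had 8669 and the other 13 had 7465. The 15 cells were 5.38% of the UMIs of the population but 97.1% of its *Akr1b7* UMIs, 47.2% of its *Crisp1* UMIs and 73.6% of its *Ptgs2* UMIs. They held 10 of 1642 *Dab2* UMIs and 0 of 313 *Clcn5* UMIs. For some results below the value without them is given. All other values include them, and how far low values in the vas deferens rest on them was not tested.

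**Figure D1:**
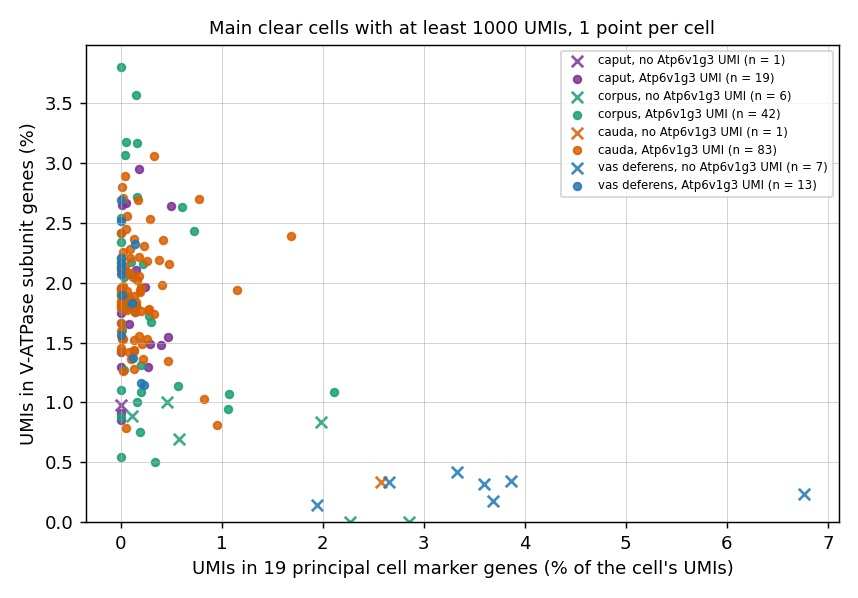
Each point is 1 of the 172 main clear cells with at least 1000 UMIs, coloured by library. The horizontal axis is the percent of the cell's UMIs in 19 principal cell marker genes and the vertical axis the percent in V-ATPase subunit genes. Crosses are the 15 cells with no *Atp6v1g3* UMI. The 7 vas deferens crosses lie at 0.146% to 0.418% on the vertical axis, apart from the 13 vas deferens circles at 1.15% to 2.69%. The vertical axis includes *Atp6v1g3*, which the crosses lack by choice.

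Doublets, barcodes that hold 2 cells, are not said to have been removed, and they were called here by likeness to pairs of cells added together. The number called in each library was set beforehand by an assumed rate of 0.8% per 1000 cells. This gave 2.80% of all vas deferens cells and 2.00% of all cells, which are thus settings and not measured rates. Among main clear cells 16 were called, 11 of them among the 25 of the vas deferens, against 0 of the 78-cell clear cells. The caller marked 36.5% to 54.6% of made doublets by library, so a cell that was not called may still be one. Only 1 of the 15 cells without *Atp6v1g3* was among the called cells. The 11 called vas deferens cells had 1.77% of UMIs in V-ATPase subunits and 0.186% in principal markers, and the 14 not called had 0.724% and 2.62%. Of 43 barcodes that occurred in more than 1 library, 1 belonged to a main clear cell. Whether any of these cells are doublets or principal cells was not tested.

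Genes of other cell types were otherwise low in main clear cells. The 5 basal markers together held 0.0115% to 0.0321% of UMIs by library, *Krt5* had 1 UMI in the whole population, and *Krt14* had 20.2 UPM against 2890 in basal cells. The 4 muscle markers held at most 0.00962%, the 5 endothelial markers at most 0.00385%, and the 2 measured sperm transcripts had no UMI. The 5 stromal markers held 0.0951% in the caput and at most 0.0207% elsewhere, and in the caput all of it was *Dcn*, a matrix proteoglycan, at 951 UPM. The 5 immune markers held 0.00975%, 0.104%, 0.0847% and 0.526% by library. Most of this was *Cd52*, which is also a secreted product of principal cells and had 20559 UPM in those cells and 1311 in main clear cells, or 625 without the 15 cells that lacked *Atp6v1g3*. Without the 7 such cells of the vas deferens the immune markers there held 0.0314%. The part of genes of other cell types in the results below was not tested. Values without the 15 cells are given for some results below, and without the called doublets for the V-ATPase share alone.

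V-ATPase subunit genes were higher in main clear cells than in principal and basal cells in every library. The V-ATPase subunits listed held 1.83%, 1.82%, 1.92% and 1.33% of UMIs from caput to vas deferens, and 1.81% (1.79 to 1.84) over all. The vas deferens value lay below the other 3. Leaving out cells that lack *Atp6v1g3* must raise a share that includes it. Over the V-ATPase subunits other than *Atp6v1g3*, the shares were 1.06%, 1.05%, 1.19% and 0.972%, and without the 15 cells they were 1.06%, 1.07%, 1.19% and 1.31%, so the vas deferens went from the lowest to the highest of the 4. Principal cells had 0.208% to 0.381% by library and basal cells 0.191% to 0.228%. No library of either type came near the lowest library of main clear cells.

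Of 24 subunit genes with values, 22 had at least 20 UMIs in main clear cells. A gene was called higher at 4 times the level of the other population with at least 20 UMIs, and 8 of the 22 were called over principal cells, 14 over basal cells and 8 over both, while none was called lower. Among all 6761 genes with at least 20 UMIs the shares called were 11.3% over principal cells, 13.8% over basal cells and 5.66% over both, and 2.62% were called over each of 6 other cell types, as were 7 of the subunits. The median ratio of the subunits was 2.80 to principal and 4.53 to basal cells, against 1.5 and 1.65 over all genes.

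The isoforms of restricted expression had the large ratios. In the V1 sector, *Atp6v1b1* had 268, 158, 215.7 and 64.2 UPM from caput to vas deferens, against 0.732 in principal and 1.14 in basal cells, a ratio of 257 (123 to 648) and 166 (79.0 to 417). Its counterpart *Atp6v1b2* had 176 UPM against 64.4 in principal cells, a ratio of 2.74 (2.32 to 3.23). For the C subunit, the ratio to principal cells was 19.7 (15.9 to 24.4) for *Atp6v1c2* and 1.44 (1.14 to 1.80) for *Atp6v1c1*. For the G subunit, which forms part of the stalk, it was 180 for *Atp6v1g3* and 1.13 (1.05 to 1.21) for *Atp6v1g1*. So in each of these subunits 1 isoform had a far larger ratio than the other.

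The same held in the V0 sector. *Atp6v0d2* had 398, 539, 607 and 514 UPM from caput to vas deferens and was 89.9 times (68.8 to 120) as high as in principal cells, against 1.03 times (0.833 to 1.27) for *Atp6v0d1*. *Atp6v0a4*, the a subunit of intercalated cells, had 163, 173, 79.6 and 92.7 UPM and a ratio of 67.5 (40 to 122), against 1.51 (1.04 to 2.15) for *Atp6v0a2* and 0.628 (0.472 to 0.823) for *Atp6v0a1*, which was lower than in principal cells. Other subunits had ratios below those of the isoforms of restricted expression. *Atp6v1e1* was 6.58 times (6.07 to 7.13) and *Atp6v0c*, the proton-binding ring, 6.62 times (6.30 to 6.95) as high, *Atp6v1f* 3.32 times (3.08 to 3.57), and the accessory subunits *Atp6ap1* and *Atp6ap2* 1.92 and 2.26 times.

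**Figure D2:**
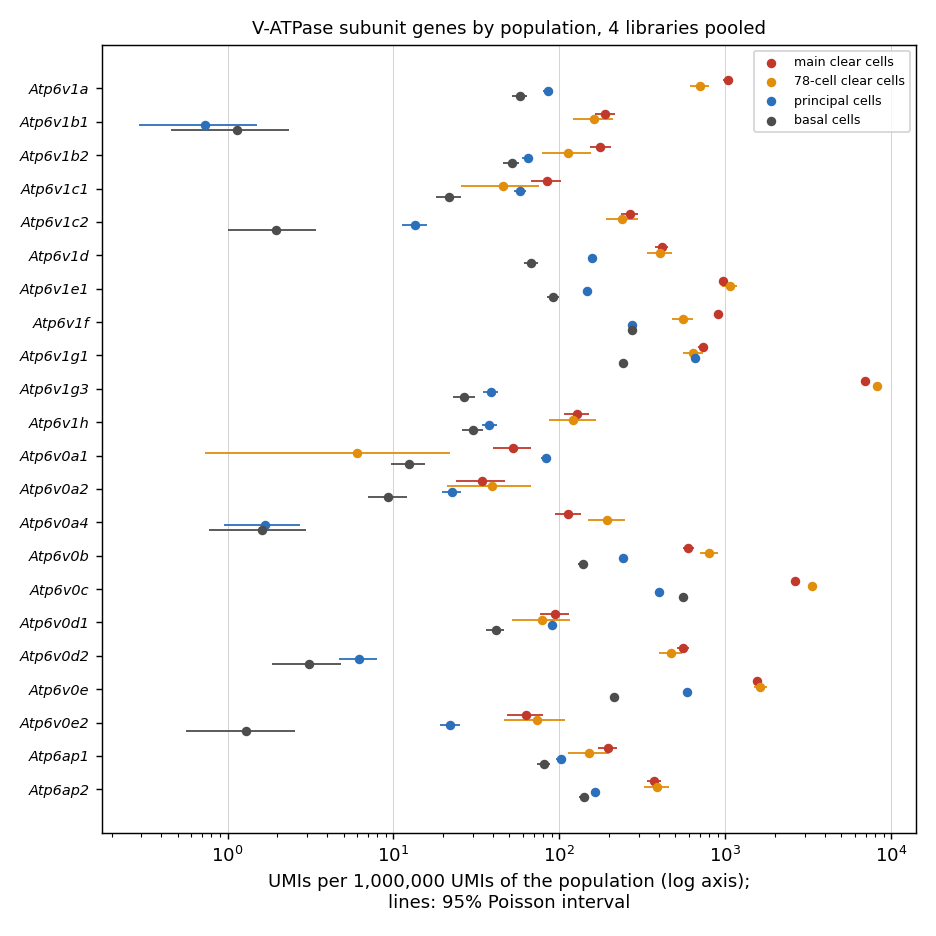
Levels of the 22 V-ATPase subunit genes with at least 20 UMIs in main clear cells, in UMIs per 1000000 UMIs on a log axis. Points are main clear, 78-cell clear, principal and basal cells over all libraries, and lines are 95% Poisson intervals. *Atp6v1b1*, *Atp6v1c2*, *Atp6v1g3*, *Atp6v0a4* and *Atp6v0d2* show the widest gaps between the clear populations and the other cells.

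Proteins that assemble or regulate the pump were part of the same pattern in some cases. Of 12 such genes 8 had at least 20 UMIs, and 3 were called over both principal and basal cells, against 5.66% of all genes. These were *Dmxl1* at 203 UPM and *Dmxl2* at 43.2 UPM, of the rabconnectin family, at 4.74 (4.00 to 5.59) and 7.65 times (5.06 to 11.5) the level of principal cells, and *Ncoa7*, a TLDc domain protein that binds the pump, at 117 UPM and 10.6 times (8.14 to 13.9). The assembly factor *Vma21* was at 1.01 times (0.799 to 1.27).

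Transcription factors of ionocytes and intercalated cells formed the second group with very large ratios. All 4 with at least 20 UMIs were called over principal cells and 3 over basal cells as well. *Foxi1* (chromosome 11, 34204338 to 34208089) had 699, 766, 730 and 307 UPM from caput to vas deferens against 3.24 in principal and 2.11 in basal cells. *Tfcp2l1*, which acts in collecting duct intercalated cells, had 496, 797, 789 and 442 UPM against 13.9 and 17.7. *Dmrt2* had 317, 235, 131 and 92.7 UPM against 0.941 in principal cells and a single UMI in basal cells. *Foxp1* was 9.12 times (7.28 to 11.4) as high as in principal but 1.69 times (1.41 to 2.02) as high as in basal cells. Of 13 other epithelial and lysosomal factors 1 was called over principal cells, 2 were called over basal cells and 2 under basal cells. The calls over the 2 types were near the shares of all genes, 11.3% and 13.8%. *Esr1*, the estrogen receptor, was over both at 30.3 UPM, and *Klf5* was at 31.2 UPM against 418 in basal cells.

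Acid-base transporters were fewer than channels among the genes detected. Of 39 measured, 9 had at least 20 UMIs. The chloride-bicarbonate exchanger *Slc26a3* had 431, 531, 428 and 92.7 UPM from caput to vas deferens against 4.70 (3.43 to 6.30) in principal and 1.79 (0.891 to 3.20) in basal cells. The voltage-gated proton channel *Hvcn1* had 34 UPM (23.9 to 46.9) against 2.61 and 1.62. These were the 2 genes of the list called over both types. Over the whole list 4 genes were called over principal cells and 4 under, against shares of all genes of 11.3% and 6.42%. The carbonic anhydrases, which supply protons from carbon dioxide, included 2 that were called over principal cells but not over basal cells. *Car2* had 204 UPM against 45.0 in principal cells and 171 in basal cells, and *Car12* had 108 UPM against 2.51 and 68.5.

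Among ion channels and the sodium pump, 21 of 35 genes measured had at least 20 UMIs, of which 9 were called over principal cells, 8 over basal cells and 6 over both, while 2 were called under principal and 1 under basal cells. The shares of all genes called over principal cells, basal cells and both were 11.3%, 13.8% and 5.66%. On the chloride side *Bsnd*, which encodes barttin, an accessory subunit of chloride channels, had 32 UMIs in main clear cells, 29.4 UPM, and none in principal or basal cells, so it was at least 93.7-fold and at least 60.4-fold higher with a floor of 3 UMIs over each group. *Clcn5* had 284, 300, 318 and 143 UPM and a ratio of 120 (78.3 to 191) to principal cells. On the cation side were *Kcnma1*, the large-conductance potassium channel, at 374, 319, 210 and 92.7 UPM with a ratio of 104 (67.4 to 169), *Kcnq1* at 111 UPM with a ratio of 9.84 (7.53 to 12.9), and *Scnn1a*, a subunit of the epithelial sodium channel, at 175 UPM with a ratio of 29.3 (21.7 to 40.1). All 3 were lowest in the vas deferens, with the cells that lacked *Atp6v1g3* included.

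Receptors were sparse. Of 21 measured 7 had at least 20 UMIs, and 3 were called over both types (5.66% of all genes were), while 3 were called under principal and 3 under basal cells (6.42% and 6.33% of all genes were). The 3 over both were *Kit*, a receptor tyrosine kinase, at 154, 204, 177 and 85.6 UPM by library against 1.99 in principal and 1.95 in basal cells, the ATP-gated channel *P2rx4* at 57.9 UPM against 11.5 in both, and *P2ry14*, a UDP-sugar receptor, at 19.3 UPM with 1 UMI in principal and 6 in basal cells. The adenosine receptor *Adora1* had 106 UPM against 49.1 and 5.19, and *Ramp1*, a coreceptor for calcitonin family peptides, had 49.6 UPM against 398 in principal cells. By library *Ramp1* had 0, 19.2, 30.1 and 228 UPM, so it was highest in the vas deferens. The 15 cells without *Atp6v1g3* held 53.7% of its UMIs, and without them it was at 24.3 UPM.

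**Figure D3:**
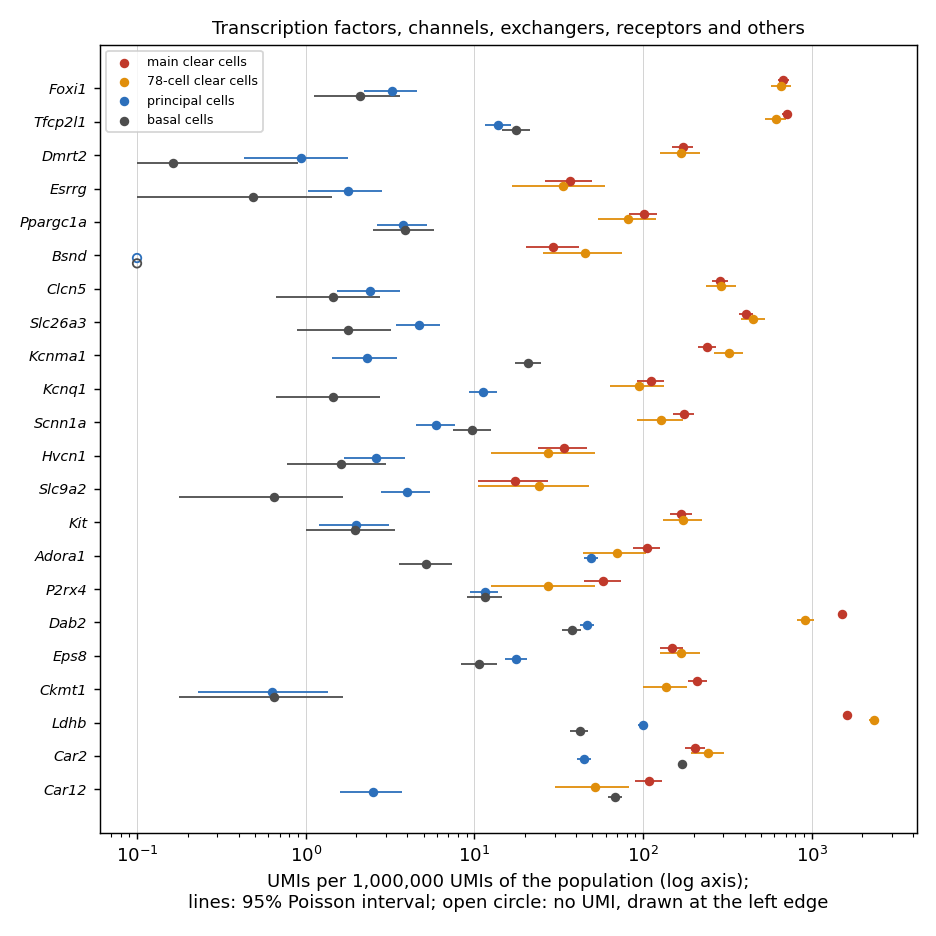
Levels of transcription factors, channels, exchangers, receptors, *Dab2*, *Eps8*, energy genes and carbonic anhydrases in the same units and populations as the V-ATPase plot. For *Foxi1*, *Clcn5* and *Kit* both clear populations lie near each other and far above principal and basal cells, while *Car2* and *Car12* in basal cells come close to the clear populations. Open circles are a count of 0.

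Genes of endocytosis had smaller ratios than genes of the pump. Of 47 with at least 20 UMIs, 3 were called over principal cells, 9 over basal cells and 2 over both, 2 under principal and 1 under basal cells. Among all genes 11.3%, 13.8% and 5.66% were called over principal cells, basal cells and both, so only the calls over basal cells lay above these shares. Medians were 1.79 and 1.79 against 1.5 and 1.65 over all genes. The 2 called over both were *Dab2*, 32.4 times (29.2 to 36.1) and 39.7 times (34.6 to 45.7) as high, and *Ap2a2*, a subunit of the AP2 adaptor, 4.28 (3.40 to 5.37) and 5.97 times (4.56 to 7.82). *Lrp2*, the megalin receptor that *Dab2* binds in the kidney, had 6 UMIs (5.51 UPM) against 87.7 UPM in principal cells. In the lysosome list 2 of 21 were called over both, against 5.66% of all genes. These were *Hexa* at 207 UPM (5.88 and 7.86 times) and *Npc1* at 63.4 UPM (5.05 and 4.15 times), and *Ctsh* was lower than in both at 5.51 UPM. Among actin and microvillus genes *Eps8*, which caps actin at microvillus tips, was called over both, at 149 UPM against 17.7 and 10.7, whereas *Prom1* was lower than in principal cells, at 16.5 against 365 UPM.

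Genes of energy supply differed from the 2 reference types in different ways. The 79 measured genes of oxidative phosphorylation held 4.67%, 4.72%, 4.6% and 4.42% of UMIs from caput to vas deferens, and 4.61% (4.57 to 4.65) over all. Principal cells had 1.91%, 2.51%, 2.26% and 4.76% in the same order and basal cells 1.37% to 1.75%. So main clear cells lay above principal cells in the caput, corpus and cauda but not in the vas deferens, where the intervals were 4.32% to 4.53% and 4.74% to 4.78%. Without the 7 vas deferens cells that lacked *Atp6v1g3* the main clear value there was 4.58%. Gene by gene, 0 of 78 were called over principal cells and 21 over basal cells, against 11.3% and 13.8% of all genes.

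**Figure D4:**
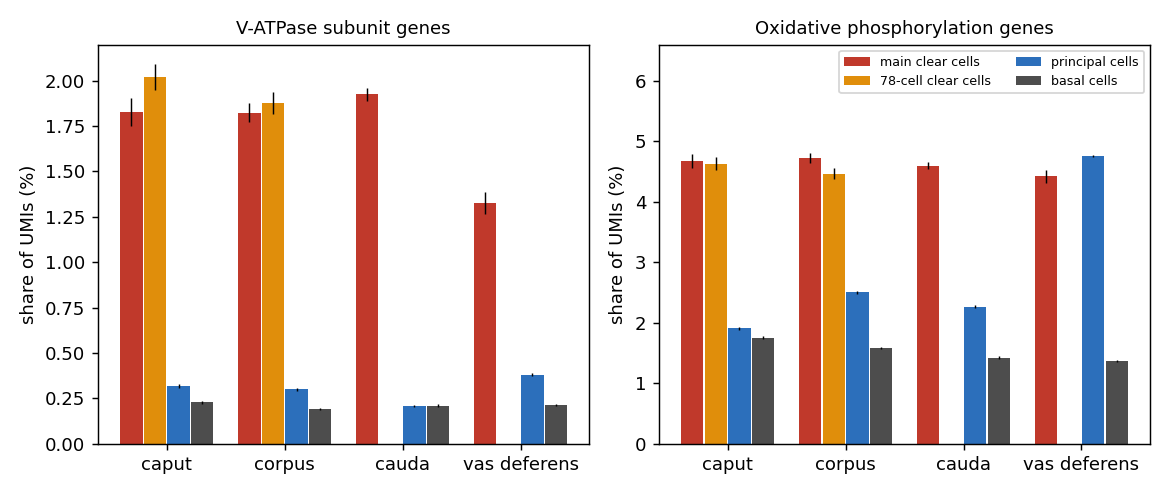
Share of UMIs in V-ATPase subunit genes (left) and in oxidative phosphorylation genes (right) by library. Bars are main clear, 78-cell clear, principal and basal cells, and lines are exact 95% intervals. The 78-cell clear cells occur in the caput and corpus alone. On the right, principal cells of the vas deferens reach 4.76% against 4.42% in main clear cells.

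Of 14 glycolysis genes with at least 20 UMIs, 7 were called over principal cells but 1 over basal cells, against 11.3% and 13.8% of all genes. The 1 was *Ldhb*, the heart form of lactate dehydrogenase, with 2421, 1747, 1454 and 1362 UPM from caput to vas deferens against 100 in principal and 42.0 in basal cells. *Aldoa* was 8.62 times (8.02 to 9.25) and *Eno1* 5.49 times (4.95 to 6.10) as high as in principal cells but 2.06 and 3.34 times as high as in basal cells. *Ckmt1*, the mitochondrial creatine kinase, had 122, 215.5, 253 and 107 UPM against 0.627 and 0.649, a ratio of 335 (152 to 923) to principal cells. *Ppargc1a*, a coactivator of mitochondrial genes, and its partner *Esrrg* were 26.8 (18.3 to 40.3) and 20.7 times (11.5 to 38.9) as high as in principal cells.

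Beyond these lists, 767 of 6761 genes were called over principal cells and 934 over basal cells, and 383 over both. Without the cauda library these counts were 487, 600 and 247. Lower in main clear cells were 706 of 10998 genes (6.42%) against principal cells and 622 of 9826 (6.33%) against basal cells, and the counting interval left out 1 for 644 and 571 of these. Since the clusters were built from these genes, nothing is read from these shares. The largest ratios over principal cells went to *Rarb*, *Plb1*, *Insrr*, *Ckmt1*, *Tesc*, *Klkb1*, *Atp6v1b1*, *Pla2r1*, *Muc20* and *Serpinb6b*. *Tesc*, a calcineurin homologous protein, had 85.4 UPM and no UMI in principal cells, so at least 272-fold higher. *Serpinb6b*, a serine protease inhibitor, had 1695 UPM against 7.95. Among the largest over basal cells were *Dmrt2*, *Mcf2*, *Fut9*, *Cldn9*, *Frem1*, *Ckmt1*, *Foxi1*, *Hepacam2* and *Tesc*, of which the tight junction gene *Cldn9* had 60.6 UPM against a single UMI in basal cells.

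In the other direction, the genes furthest below principal cells were secretory products and markers of principal cells, *Ly6g5c*, *Teddm1*, *Crygc*, *Defb25*, *Lcn8*, *Cst11*, *Defb47*, *Aqp2*, *Spag11b* and *Clpsl2*. *Spag11b* had 439 UPM in the main clear cells of the caput, none in the corpus, and 1.77 and 7.13 in cauda and vas deferens, against 8004 in principal cells. These ratios pool libraries that weigh differently in the 2 populations, and each of the 10 genes had nearly all of its principal cell UMIs in 1 region. Without the caput *Spag11b* was at 1.02 times principal cells, on 2 UMIs in main clear cells. *Aqp2* had 9 UMIs in main clear cells, 7 of them in the 15 cells without *Atp6v1g3*. The genes furthest below basal cells were *Krt5*, *Egfl6*, *Krt14*, *Pltp*, *Krt15*, *Fst*, *Snai2*, *Krt17*, *Spon1* and *Apoe*, keratins and secreted proteins of basal cells, and *Apoe* had 265 UPM against 23896.

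The 177 genes called over 6 other cell types included some at high level. *Cd24a*, a surface glycoprotein, had 7955, 10335, 6630 and 3538 UPM by library against 760 in principal and 163 in basal cells. *Serpinb9*, an inhibitor of granzyme B, had 1287 UPM against 7.01 and 24.0, and the adaptor *Stap1* had 1243 UPM against 11.6 and 9.25. Over the 34 populations of the table, the genes whose levels ranked most like *Atp6v1g3* included *Slco1a5* (Spearman rho 0.76), *S100g* (0.76), *Foxi1* (0.74) and *Vsig1* (0.74) among 2001 genes with at least 100 UMIs in main clear cells. The populations share libraries and differ in depth.

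The 383 genes were chosen on the pooled cells, and those counted within a library had to be deep enough in main clear cells there, so the counts by library only describe them. Of the 383 genes, those with at least 20 UMIs in a library were past 4-fold over both types there in 79 of 87 cases for the caput, 145 of 173 for the corpus, 248 of 275 for the cauda and 51 of 62 for the vas deferens. Of 48 genes deep enough in all 4 libraries, 35 were past 4-fold in each. The cauda held 565487 of the 1088546 UMIs and so weighs most in the pooled levels.

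Within the population, a few genes differed widely between libraries. *Id3*, an inhibitor of helix-loop-helix factors, had 16.3, 19.2, 861 and 1284 UPM from caput to vas deferens. Principal cells followed the same order with 23.2, 105, 333 and 438 UPM, as did basal cells with 37.8, 44.5, 985 and 1314. *Fxyd3*, a regulator of the sodium pump, had 122, 100, 914 and 770 UPM, and *S100a1*, a calcium-binding protein, 650, 312, 1744 and 1341. *Stap1* went the other way with 2397, 2113, 812 and 357 UPM. *S100g* was high in the cauda alone, at 447 UPM against 28.5 to 57.7 elsewhere. By contrast *Atp6v1g3* in the cauda was 0.951 times (0.902 to 1.0) its level in the corpus. *Foxi1*, which was not used to choose the 15 cells, had 697, 779, 732 and 466 UPM from caput to vas deferens without those that lacked *Atp6v1g3*, lowest in the vas deferens as before.

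Genes of the response to tissue dissociation (immediate early and heat shock genes) held 1.98%, 1.33%, 1.21% and 1.04% of the UMIs of main clear cells from caput to vas deferens. The same 18 genes of the dissociation response held 0.810% in principal cells and 1.6% in basal cells over all libraries. Over all libraries main clear cells had 1.30%, between the 2 types. The caput value lay above both of these pooled values, which is a comparison of 1 library with all. In the 78-cell clear cells these genes held 2.07% in the caput and 1.68% in the corpus, above main clear cells in both.

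The 78-cell clear cells were the population most like the main clear cells. Over 2001 genes the levels had a Spearman rho of 0.86 with theirs and 0.60 with the next population, one of principal cells, as a description across genes that share libraries. The 2 were compared within the caput and within the corpus, the only libraries with both. Of 2554 genes with at least 50 UMIs, 2162 (84.7%) were within 2-fold in both libraries, and 14 were past 2-fold the same way in both. Of 555 genes with at least 200 UMIs, 540 were within 2-fold in both and 1 was past it the same way, which was *Iapp*.

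No V-ATPase subunit was called in either direction between the 2 clear populations at 2-fold in both libraries. Of all genes only 1.65% were called higher and 0.419% lower in main clear cells, so this does not set the subunits apart. In the 78-cell clear cells the V-ATPase subunits held 2.02% of UMIs in the caput and 1.88% in the corpus. Main clear cells had 1.83% and 1.82%. In the caput the intervals lay apart, at 17525.5 to 19030 UPM in main and 19459.9 to 20938.3 in 78-cell clear cells. In the corpus they overlapped. Of 21 subunits with at least 20 UMIs in caput and corpus, 4 were above the 78-cell clear cells in both and 8 below. Among all 5330 such genes 1608 were above and 1031 below. *Atp6v1g3* had 8788 and 7711 UPM in the 78-cell clear cells against 7671 and 7702 in main clear cells. Its ratios were 0.873 (0.801 to 0.951) in the caput and 0.999 (0.933 to 1.07) in the corpus. *Foxi1* had ratios of 1.31 (0.949 to 1.81) and 1.01 (0.813 to 1.26), *Slc26a3* of 0.916 (0.626 to 1.34) and 1.22 (0.925 to 1.63), and *Kit* of 1.08 (0.547 to 2.14) and 1.04 (0.672 to 1.63). Such intervals bound the differences and do not show that the levels were equal.

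*Iapp* (chromosome 6, 142298423 to 142303961), which encodes the peptide hormone Amylin, separated the 2 clear populations. It had 44316 UPM in the 78-cell clear cells of the caput and 49593 in those of the corpus. In main clear cells it had 479, 2467, 31.8 and 0 UPM from caput to vas deferens, and the ratios to the 78-cell clear cells in the caput and corpus were 0.0108 (0.00823 to 0.0140) and 0.0497 (0.0459 to 0.0539). In principal cells it had 44.1, 65.5 and 0.575 UPM and none in the vas deferens. Within the main clear population *Iapp* was uneven. No UMI was found in 183 of the cells, and 10 cells held 616 of the 718 UMIs (85.8%). The lowest of the 78 cells had 10976 UPM, and 2 main clear cells were at or above it. The 10 cells set the pooled level of *Iapp* in main clear cells.

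**Figure D5:**
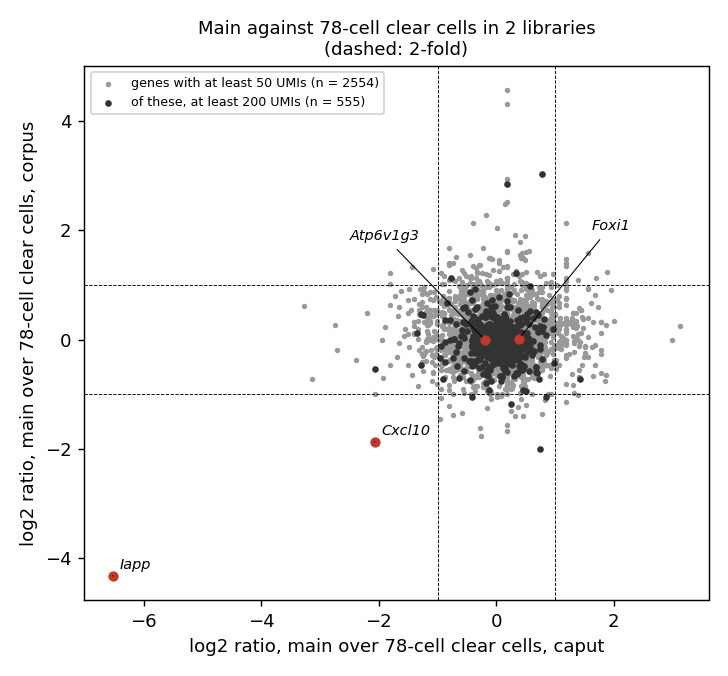
Log2 ratio of main over 78-cell clear cells in the caput (horizontal) and in the corpus (vertical) for 2554 genes with at least 50 UMIs, of which 555 with at least 200 UMIs are dark. Dashed lines mark 2-fold. *Iapp* lies far below on both axes and *Cxcl10* next, while *Atp6v1g3* and *Foxi1* lie near the centre.

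Few other genes differed in both libraries. For the 2554 genes of the plot the log2 ratios of caput and corpus had a Pearson r of 0.035, and 0.00085 without *Iapp*. Apart from *Iapp* the ratios thus hardly agreed between the libraries. How many of the calls below would arise from counting error alone is not reported here. At 2-fold in each and at least 20 UMIs, 58 of 3525 genes (1.65%) were higher and 12 of 2865 (0.419%) lower in main clear cells, but 53 and 11 of them had fewer than 50 UMIs. The intervals left out 1 in both libraries for 7 higher and 3 lower genes. The 3 were *Iapp*, *Cited2*, a transcriptional coregulator, with ratios of 0.228 (0.0567 to 0.681) and 0.132 (0.0143 to 0.606), and the chemokine *Cxcl10*, with 0.238 (0.0708 to 0.636) and 0.273 (0.0875 to 0.734). Among the 7 were *Gpr89*, a channel of the Golgi, with 7.99 (1.03 to 360) and 4.12 (1.19 to 22), *Pdzd11*, with 3.19 (1.09 to 11.3) and 6.19 (1.47 to 55.2), and the organic anion transporter *Slco1a5*, with 3.69 (1.94 to 7.48) and 2.36 (1.43 to 4.05). Of these, *Slco1a5* rested on the most UMIs in main clear cells, 260.

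The ranking by ratio gave *Plxna4*, *Gpr89*, *Mnt*, *Usp32*, *Zmynd8*, *Bsph2*, *Ints3*, *Capn5*, *Pdzd11* and *Prrc1* as the genes most above, and *Iapp*, *Cited2*, *Cxcl10*, *Id3*, *Mrpl13*, *Cyp20a1*, *Dctn4*, *Auts2*, *Bik* and *Nabp2* as those most below. Most of these had intervals that included 1 in at least 1 library. *Bsph2*, a sperm-binding protein, had no UMI in the main clear cells of the caput and 1 in the 78-cell clear cells there, so its call rests on the floor of 3 UMIs in that library and not on a measured difference. In all, 2 of the 58 genes had no UMI in the main clear cells of 1 of the libraries.

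Genes that mark the main clear population in the study's comparison of clear populations were lower in it than in principal cells. The 5 genes of that kind, *Wfdc13*, *Defb2*, *Gpx3*, *Ptgs2* and *Rnase12*, were all below principal cells, with ratios from 0.0683 for *Ptgs2* to 0.282 for *Gpx3*, and 4 of the 5 were called lower. The study chose them on these cells, so they are no independent evidence. Against basal cells 4 of the 5 were higher, with ratios from 2.58 for *Wfdc13* to 6.27 for *Gpx3*, while *Ptgs2* was at 0.259. Of the 4 with at least 20 UMIs in caput and corpus, 2 were above the 78-cell clear cells in both libraries and 0 below. Among all 5330 such genes 1608 were above and 1031 below. At 2-fold 1 of the 4 was called higher than the 78-cell clear cells, against 1.65% of all genes. The 5 genes were unevenly spread. *Wfdc13* had 24.4, 212, 8.84 and 0 UPM from caput to vas deferens, *Ptgs2*, the inducible prostaglandin synthase, had 8.13, 84.7, 12.4 and 571, and *Defb2*, a beta-defensin, had 0, 42.3, 122 and 578. The 15 cells without *Atp6v1g3* held 73.6% of the *Ptgs2* UMIs, 54% of the *Defb2* UMIs, 39.0% of the *Rnase12* UMIs, 20.6% of the *Wfdc13* UMIs and 10.2% of the *Gpx3* UMIs, with 5.38% of all UMIs. Without those cells *Ptgs2* was at 28.2 UPM in place of 101.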

How the data were processed

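The authors made 4 droplet libraries with 3′ tag chemistry, 1 per region, aligned the reads to mm10 with HISAT2 2.0.4, counted UMIs per gene with ESAT, merged UMIs that differed by a single base, kept barcodes within limits on UMIs (350 or more before correction in the table used) and subtracted ambient RNA. The deposited matrix holds these corrected UMI counts for 16892 genes, and the deposited table of cells gives the library and population of each cell. Correction removed 2.23% of the UMIs of main clear cells. The counts were summed over the cells of a population. Principal cells were all populations named PC, and basal cells those named Basal without the one named for macrophages. Ratios have exact conditional binomial intervals, shares exact Clopper-Pearson intervals, and a count of 0 was raised to 3 UMIs. A gene was called at 4-fold (2-fold within both libraries against the 78-cell clear cells) given 20 or more UMIs on the higher side. Genes named are members of fixed lists, the 10 largest ratios per comparison and direction and the 5 most like *Atp6v1g3*. The deep cells without *Atp6v1g3*, and *Cd24a*, *Serpinb9*, *Stap1*, *S100a1*, *Fxyd3* and *Slco1a5* where they are singled out, were chosen after their values were seen, and all members and lists were chosen with earlier results of these data known. A few members of the lists and rankings are not reported here. Genes without values here included *Atp6v1e2*, *Slc4a1* and *Kcnj1*. Scripts were tested on simulated data. Doublets were called against simulated pairs of cells and kept. The work used matplotlib 3.10.9, scikit-learn 1.9.0, pandas 2.3.3, scipy 1.17.1, numpy 2.4.6 and Python 3.11.15, with GENCODE gene positions on GRCm38.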

Additional observations from a re-analysis of the deposited data

Results flagged for a closer look

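The ratio of *Apoe* in main clear over principal cells was 7.65 in the vas deferens and 0.0733 in the caput, opposite directions in 2 libraries. The ratio of *Krt14* was 4.32 in the vas deferens and 0.144 in the corpus. Neither difference was tested, since each region has 1 library. *Krt14* rested on 22 UMIs in main clear cells over all libraries, 1 of them from the corpus.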

How the results depend on the processing

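Each region has 1 library, so intervals cover counting error alone, and a low gene cannot be called absent. Each library holds main clear, principal and basal cells, but no test paired by library was run. The populations compared come from the same libraries, and their ratios within a library are descriptions. The alternatives were run for the 10 largest ratios per direction against principal, basal and 78-cell clear cells. Shares of cells with a UMI of the 7 clear cell marker genes were run too. Ratios of other named genes were not run, and some that rested on a count of 0 were left out. Of the values run, 471 moved by less than their counting interval, 75 moved further and 2 changed direction. These were *Spag11b*, whose ratio to principal cells ran from 0.00370 to 1.02 with 1 library left out and reached 1.02 without the caput, and *Id3*, at 10.2 times the 78-cell clear cells with all libraries pooled.

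At 2-fold in place of 4-fold, and any difference in place of 2-fold for the 78-cell clear cells, the counts higher and lower were 2134 and 1514 against principal cells and 2588 and 1416 against basal cells, 1241 over both, 587 over 6 types, and 1193 and 688 against the 78-cell clear cells. At 8-fold, and 4-fold for the 78-cell clear cells, they were 358, 351, 375, 307, 194, 70, 2 and 2. With at least 10 UMIs the last pair was 164 and 66, and with 50 it was 5 and 1, with 464 genes higher than principal cells, 523 than basal cells and 235 than both. Leaving out 1 library gave 487 to 803 genes over principal cells, 600 to 1022 over basal cells and 247 to 405 over both, the lowest each without the cauda. Against the 78-cell clear cells, pooling caput and corpus gave 191 and 43, pooling all libraries 818 and 84, and means over cells 167 and 61.

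The V-ATPase share was 1.64% as a mean over cells, 2.13% without ribosomal protein genes, 1.89% without the 15 cells lacking *Atp6v1g3* (chosen after seeing the data) and 1.69% to 1.88% with 1 library left out. The share of oxidative phosphorylation genes was 4.08%, 5.43% and 4.66% under the first 3 of these. Without the called doublets the V-ATPase share was 1.83%. The cause of these moves was not tested.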
